A study of Mus musculus with 6 samples.

Results

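Transcript levels were examined for 7 of the 25039 mouse genes that could be named in this series. They are 6 genes grouped as those of replication-independent H2A histone variants (H2az1, H2az2, H2ax, H2aj, Macroh2a1 and Macroh2a2) and the transcribed pseudogene H2af-ps2. The genes were selected by name, H2af-ps2 was added because of its place in an earlier reading of the study's genotype comparison, and each gene was represented by the transcript with the highest mean. RNA-seq had been made from primary mouse embryonic fibroblasts (MEFs) of 2 genotypes, wild type (WT) and Anp32e null, with 3 libraries labelled for each. Both groups were kept below passage 8 in DMEM with 10% FBS, and a stranded total RNA kit was used, so transcripts without a poly(A) tail could enter the libraries. The Anp32e null cells came from embryos without ANP32E, which the paper describes as a chaperone that binds H2A.Z and keeps it from accumulating. The sources used here do not say how many embryos the libraries stand for.

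The measurement used was 1 value per transcript: the authors' mean, over all 6 libraries, of counts divided by a size factor for each library. It merges WT and Anp32e null cells, and it has no value per library behind it here. Each level below is therefore a mean of both genotypes with no SD, and no difference between WT and Anp32e null was tested.

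Histone H2A pairs with H2B in the nucleosome. Most H2A protein comes from clustered, intronless genes that are transcribed when DNA is replicated, whereas the variants are encoded by single genes outside those clusters. Whether any variant gene, such as the single-exon H2ax, is also transcribed with replication was not tested. H2A.Z, made by H2az1 and H2az2, marks promoters and enhancers and is put in place by the SRCAP and TIP60 complexes. H2A.X, made by H2ax, carries the serine that is phosphorylated at DNA breaks, and the macroH2A proteins carry a large extra domain and are best known from silent chromatin. H2aj encodes H2A.J, a close relative of replication-dependent H2A.

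Because H2af-ps2 is named as an H2A pseudogene, its sequence was set beside those of the H2A genes first. RefSeq places it on chromosome 13, chr13:51200084-51203066 (GRCm38.p6), a span of 2983 bases. It lies 27.4 Mb beyond H2ac4, the nearest of the 12 replication-dependent H2A genes on that chromosome. GENCODE vM21 annotates a processed pseudogene of 339 bases at chr13:51202727-51203065 on the minus strand under the older symbol Hist1h2al, which is 11.4% of the RefSeq span. The rest of the RefSeq span was not compared.

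Along these 339 bases H2af-ps2 was closest to H2ac18 and H2ac19, a pair of replication-dependent genes on chromosome 3, each with 337 identical bases (99.4%). H2ac20, also on chromosome 3, had 333 identical bases. H2ax shared 305 of 333 aligned bases and H2aj 304 of 339. The H2A.Z genes were far from it, with 168 identical of 248 aligned bases for H2az1 and 164 of 250 for H2az2. Its sequence thus went against a reading of H2af-ps2 as a copy of any of the 6 variant genes.

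The 2 stretches below hold the only bases at which H2ac18 differed from the pseudogene model, and the same stretches of other H2A genes are given for comparison. Capitals mark bases that differ from H2af-ps2. Positions are counted from the 5′ end of the 339-base model. The first stretch covers positions 91 to 150:
H2af-ps2: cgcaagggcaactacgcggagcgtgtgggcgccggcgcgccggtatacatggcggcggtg
H2ac18: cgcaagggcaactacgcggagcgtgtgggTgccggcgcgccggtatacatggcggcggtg
H2ac20: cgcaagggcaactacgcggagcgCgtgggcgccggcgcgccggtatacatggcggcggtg
H2ax: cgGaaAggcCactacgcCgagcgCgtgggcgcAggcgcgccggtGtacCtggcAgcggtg
H2aj: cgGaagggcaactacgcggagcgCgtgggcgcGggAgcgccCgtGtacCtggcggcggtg
The second stretch covers positions 187 to 246:
H2af-ps2: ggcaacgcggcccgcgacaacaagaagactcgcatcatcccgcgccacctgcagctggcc
H2ac18: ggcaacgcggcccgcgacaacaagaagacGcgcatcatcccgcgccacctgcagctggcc
H2ac20: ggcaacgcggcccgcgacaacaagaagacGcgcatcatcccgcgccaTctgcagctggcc
H2ax: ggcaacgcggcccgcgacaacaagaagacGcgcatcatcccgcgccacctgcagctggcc
H2aj: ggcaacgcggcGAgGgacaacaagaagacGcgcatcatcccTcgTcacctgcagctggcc

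With the pseudogene's base first, the differences from H2ac18 were C120T and T216G. Read in the frame of H2ac18, the model began at codon 6 and ran through 113 codons with 0 stop codons. Neither difference changed a residue, so 0 residues differed from the H2ac18 protein of 130 residues over that part. The model thus lacks the start codon and the codons after it up to codon 6. The RefSeq span reaches only 1 base beyond the model at that end, so it does not hold them next to the model either, and the end of the reading frame was not compared.

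**Figure D1:**
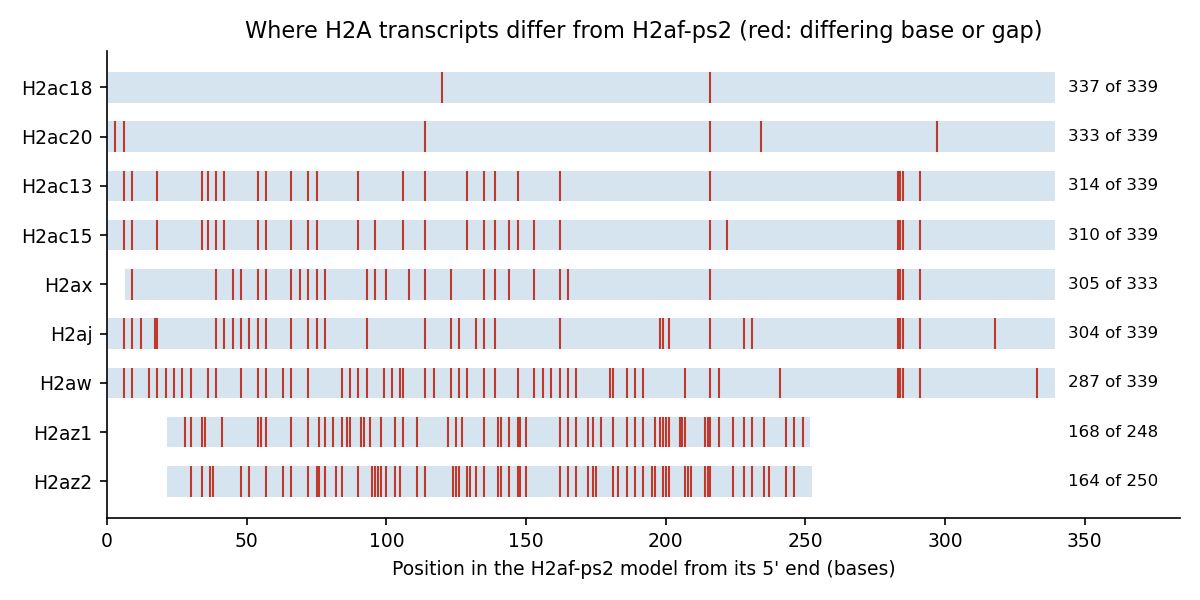
Positions in the 339-base H2af-ps2 model (x axis, bases from its 5′ end) at which the best local alignment of each H2A transcript differs, one bar per gene, with differing bases in red and identical of aligned bases at the right. H2ac18 differs at 2 positions, whereas H2az1 and H2az2 align over part of the model and differ throughout.

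H2af-ps2 had a mean normalized count of 10993, the third highest of the members, after H2az1 and H2ax. At this depth counting error alone was small, with a 95% Poisson interval of 10910 to 11078 if counts are independent. Only 768 of 18578 autosomal genes with a mean above 0 were higher. Its spliced length was not found. With the whole RefSeq span as length, the listed count gives 3685 per kilobase, a lower bound as far as length goes. It does not cover reads that may come from other genes.

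The genes that H2af-ps2 resembles most were listed with far lower means. H2ac18 and H2ac19 were both listed at 112 counts, with coding sequences that differ at 0 bases, while H2ac20 was listed at 16984. The means of H2ac18 and H2ac19 are equal although their transcripts are not identical, and whether both rows hold the same reads was not tested. All 437 windows of 150 bases in the H2ac18 transcript, 100% of them, occurred exactly in the transcripts of other genes. The share was also 100% for H2ac19. Where reads aligned to several places are not counted, the means of H2ac18 and H2ac19 leave out such reads. Whether these genes are expressed below H2af-ps2 was not tested. In contrast, 0 of the 190 windows of that length in the H2af-ps2 model did. At 75 bases 121 of 265 windows of H2af-ps2 (45.7%) were found in other genes, and at 50 bases 196 of 290 (67.6%). Reads of 150 bases were sequenced in pairs, so a full-length read without errors from the annotated part differs from every other annotated transcript, whereas a trimmed or partly aligned read need not. Whether reads from other H2A genes add to the mean of H2af-ps2 was not tested, and the genome outside annotated transcripts was not searched.

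**Figure D2:**
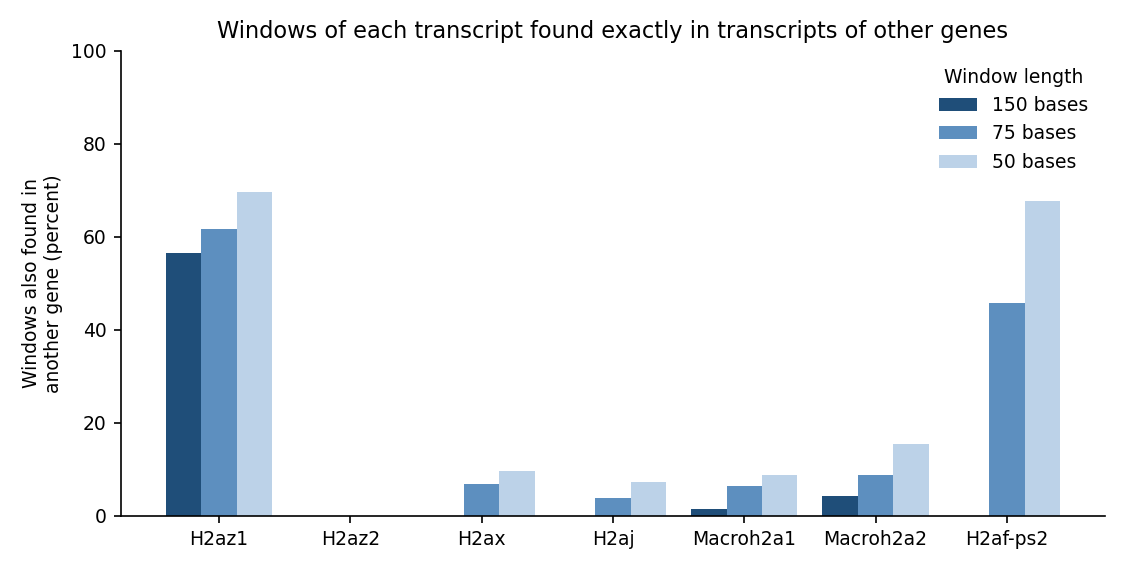
Percent of windows of 150, 75 and 50 bases (bars) in the transcript of each member that occur exactly, on either strand, in an annotated transcript of another gene. H2az1 has the highest share at each length, H2az2 has none, and H2af-ps2 goes from 0 at 150 bases to 67.6% at 50 bases.

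The H2A.Z genes, which encode nearly the same protein, were expressed at unequal levels. H2az1 lies at chr3:137864487-137866922 on the plus strand and has 5 exons, and its mean was 19093. H2az2 lies at chr11:6427226-6444511 on the minus strand, also has 5 exons, and its mean was 2410. Per kilobase of exon the levels were 17860 and 1476, a ratio of 12.1, so that H2az2 made up 7.63% of the summed level of both. When the coding length, which is 387 bases in both, was used instead, the ratio was 7.92.

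The proteins of these genes are nearly the same while the coding bases are not. Of 128 residues, 125 were identical, but only 308 of 388 aligned coding positions (79.4%). The last 90 coding bases, which encode the C-terminal end of the protein, show this. The last codon before the stop, gTt in H2az1 and gCt in H2az2, encodes different residues. The paper describes ANP32E as a chaperone that binds the H2A.Z C-terminus, but the bound residues were not mapped onto these bases. Capitals mark the 20 bases that differ between the genes:
H2az1: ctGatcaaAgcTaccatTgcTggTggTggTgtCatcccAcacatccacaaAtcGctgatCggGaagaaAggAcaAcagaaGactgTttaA
H2az2: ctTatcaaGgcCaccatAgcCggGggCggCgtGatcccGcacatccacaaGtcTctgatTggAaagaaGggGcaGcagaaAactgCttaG
Over its whole transcript, 0 of 1484 windows of 150 bases in H2az2 occurred in any other gene. For H2az1, 520 of 920 such windows (56.5%) occurred in other gene models, named Gm8203 and Tmcc1, and none of these was H2az2. The study's methods state default settings for featureCounts, under which a read aligned to several places is not counted. Where that holds, the level of H2az1 leaves out such reads, and that of H2az2 is less exposed to this.

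The promoters of this pair are shown because the levels of the genes differ while their proteins are nearly the same. Each run is the 250 bases before the transcription start in RefSeq (GRCm38.p6), for H2az1 chr3:137864237-137864486 on the plus strand and for H2az2 chr11:6444444-6444693 on the minus strand. Capitals mark exact CCAAT or GGGCGG, the letters of the CCAAT box and the GC box, on either strand:
H2az1: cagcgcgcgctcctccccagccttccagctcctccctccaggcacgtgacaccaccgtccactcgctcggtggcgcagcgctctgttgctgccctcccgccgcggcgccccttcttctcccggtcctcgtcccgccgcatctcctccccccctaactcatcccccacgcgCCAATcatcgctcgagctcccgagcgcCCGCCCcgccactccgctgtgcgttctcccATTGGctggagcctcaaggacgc
H2az2: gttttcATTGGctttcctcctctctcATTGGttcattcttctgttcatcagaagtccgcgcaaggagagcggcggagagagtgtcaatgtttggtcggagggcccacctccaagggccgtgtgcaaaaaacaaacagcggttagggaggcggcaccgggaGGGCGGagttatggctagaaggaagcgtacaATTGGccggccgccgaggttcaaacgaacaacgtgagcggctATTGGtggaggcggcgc
In H2az1 the CCAAT letters began 80 and 23 bases before the start, and once more 22 bases after it. H2az2 held them 4 times, 244, 224, 59 and 17 bases before the start. GGGCGG was found 2 times in H2az1, 53 bases before and 7 bases after the start, and once in H2az2, 90 bases before it.

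Promoter sequence was at hand for 5 members. In windows from 250 bases before to 50 bases after the start, CCAAT was present in 4 of these 5, Macroh2a1 being the exception, and in 37.4% of 32851 mouse promoters. GGGCGG was present in 4 of 5, with Macroh2a2 the exception, and in 35.7% of all. TATAAA was in 0 of 5 and in 13.6% of all promoters. Every one of the 5 was richer in G and C than the median promoter (52.7%), from 55.3% in H2aj to 74.3% in Macroh2a1. These matches are letters in a window and no measure of factor binding.

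H2ax, a single-exon gene at chr9:44334715-44336077, had a mean of 18824, only 1.01 times below that of H2az1. Per kilobase it stood at 13601, which was 1.31 times below H2az1. With the union of all annotated exons as length, H2ax came first and H2az1 second, since the exons of H2az1 models add up to a longer total. The count stayed that of the representative transcript, so only the length changed. Without a spread over libraries it cannot be said which of the pair is higher.

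H2aj, a single-exon gene at chr6:136808248-136810074, had a mean of 4994 and 2728 counts per kilobase. That was 4.99 times lower per kilobase than H2ax and 1.85 times higher than H2az2. H2A.J is nearly a replication-dependent H2A at the protein level, with 124 of 129 aligned residues shared with H2ac20, whereas H2A.X shared 121 of 143.

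The C-terminal end of H2A.X carries its phosphorylated serine, and the last 30 coding bases are given for that reason beside those of H2aj and H2ac20, which also differ from each other and from H2ax elsewhere. Capitals mark the last in-frame codon pair for serine and glutamine, the motif that DNA damage kinases phosphorylate in H2A.X:
H2ax: aaggcctcgcaggccTCTCAGgagtactga
H2aj: acggagAGCCAGaaggtgaagagcaagtga
H2ac20: accgagagccacaaggctaagagcaagtga
The H2az1 coding sequence held no such pair in its last 30 bases. H2ax held 2 and H2aj held 1. In windows of 150 bases, 0 of 1235 in H2ax and 0 of 1682 in H2aj were found in other genes, so at full read length neither level rests on sequence shared with the clustered H2A genes. At 75 bases, 90 of 1310 windows in H2ax (6.87%) and 67 of 1757 in H2aj (3.81%) were found in other genes.

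The macroH2A genes were expressed at different levels as well. Macroh2a1 (chr13:56073622-56135626, minus strand, 9 exons) had a mean of 8138, and Macroh2a2 (chr10:61738640-61784604, minus strand, 9 exons) a mean of 2137. Per kilobase these were 3978 and 982, a ratio of 4.05, and Macroh2a2 made up 19.8% of the sum. The proteins, of 372 residues each, shared 255 of 374 aligned residues, which is less than the H2A.Z pair.

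Macroh2a1 makes alternative forms of its protein, but the deposited means could not separate them. Its 4 transcripts were listed at 8138 for one pair and 8030 for the other pair, and 87.5% of the 50-base windows of the longer model occurred in the shorter one. The same held for the H2A.Z genes, whose second transcripts stood at 99.99% (H2az1) and 98.6% (H2az2) of the first. Over the whole table, the median transcript of a gene with several was at 99.7% of the highest, so the transcripts of a gene share most of their counts, which the default of featureCounts for reads that overlap several features would not give when each transcript is a feature of its own. Macroh2a1 overlaps the antisense model Gm47071 in 265 exon bases, and Macroh2a2 overlaps Aifm2 on the opposite strand in 233. H2ax, H2aj and H2af-ps2 overlap miRNA models on the opposite strand in 141, 141 and 109 exon bases. By the default settings that the methods state, featureCounts does not use strand, and reads of these opposite-strand partners then could not be told apart.

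By level per kilobase the 6 variant genes ran, from high to low, H2az1, H2ax, Macroh2a1, H2aj, H2az2 and Macroh2a2. All 6 were above the median autosomal gene (135 counts per kilobase). H2az1 and H2ax stood at the 98.8 and 98.3 percentiles of 16680 autosomal genes with a length, Macroh2a1 at 94.3, H2aj at 91.7, H2az2 at 85.5 and Macroh2a2 at 79.7. H2az1 and H2ax held 44.0% and 33.5% of the level summed over the 6 genes. The order of the middle genes depended on the length used: by coding length H2aj preceded Macroh2a1, and by the union of exons Macroh2a1 fell to the fifth place.

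**Figure D3:**
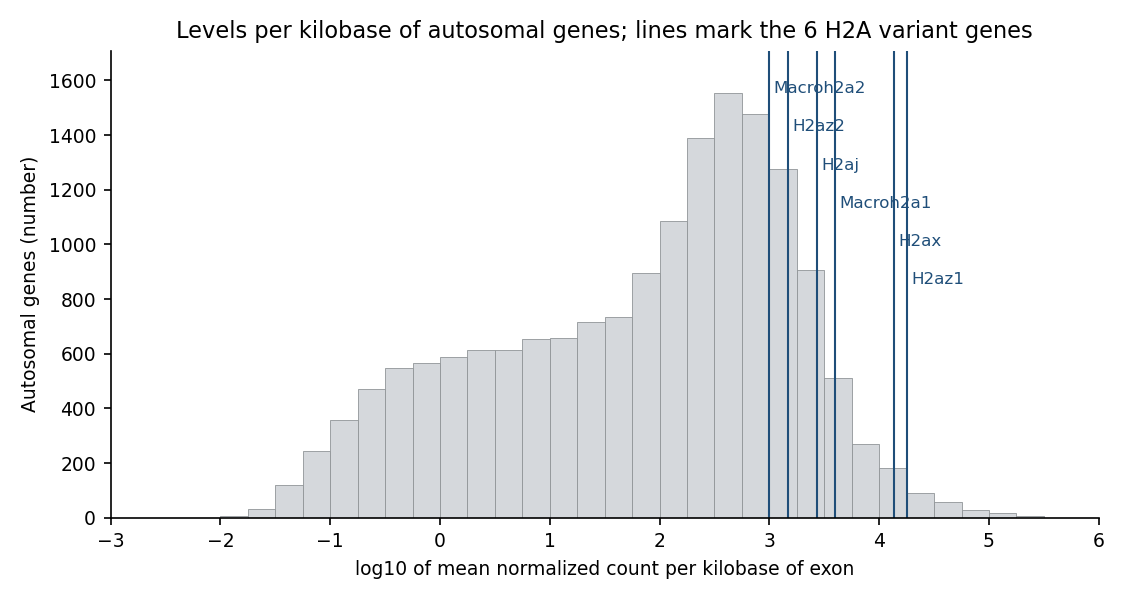
Number of autosomal genes (y axis) by log10 of the mean normalized count per kilobase of exon (x axis), with lines at the 6 H2A variant genes. The lines lie in the upper part of the distribution, from Macroh2a2 at the 79.7 percentile to H2az1 at 98.8; H2af-ps2 is left out because its spliced length was not found.

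Against the replication-dependent H2A genes the variants were neither uniformly higher nor lower. All 17 of those genes were detected, from 10.4 counts for H2ac23 and H2ac24 to 22652 for H2ac15, with a median of 3056. Their lengths were taken as RefSeq spans, since these genes have no introns, and their levels per kilobase then ran from 18.9 to 42261. Only H2ac15 and H2ac20 were above H2az1 on that scale, 4 genes were above H2ax, 9 above Macroh2a1, 11 above H2aj and 12 above both H2az2 and Macroh2a2. With GENCODE lengths for all H2A genes, an alternative chosen after seeing the data, 3 genes were above H2az1, 3 above H2ax, 7 above Macroh2a1, 9 above H2aj and still 12 above the other two. The 6 variant genes made up 19.5% of the level per kilobase summed over all these H2A genes, and the H2A.Z genes alone 9.26%. The levels of near-identical members of the cluster, such as H2ac23 and H2ac24 with equal means, are uncertain. Whether the rows of such a pair hold the same reads, which the summed level would then count more than once, was not tested. The genes also differ in how much sequence they share. Windows of 150 bases found in other genes ran from 0 in H2ac15 and H2ac20 to 86.1% in H2ac13 and 100% in H2ac18 and H2ac19. They made up 56.5% in H2az1 and 0 in H2ax. Where reads aligned to several places are not counted, the ranks and shares above leave out such reads unequally, and the size of this was not tested.

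**Figure D4:**
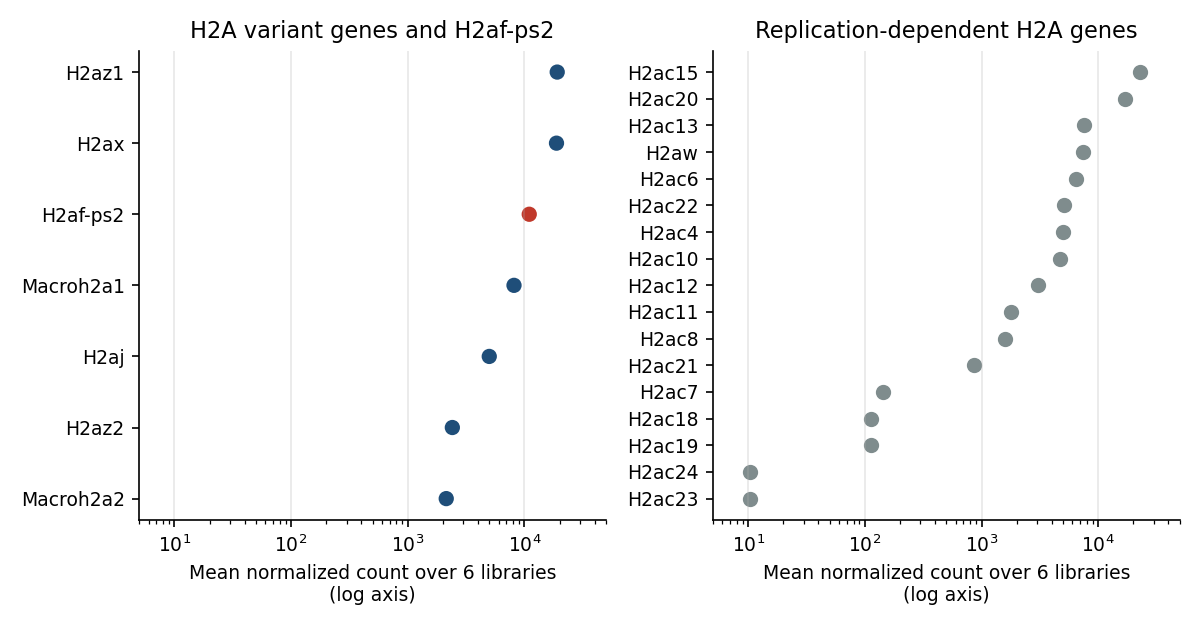
Mean normalized count over 6 libraries (x axis, log scale) of each member (left, H2af-ps2 in red) and of 17 replication-dependent H2A genes (right), one point per gene and no error, as no values per library were used. The members span 2137 to 19093, while the replication-dependent genes span 10.4 to 22652. H2ac18 and H2ac19 are listed far below H2af-ps2, but their means may leave out reads aligned to several places.

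Other replication-independent H2A genes, which are known from the testis, had means close to 0. Of 23 such genes, 16 were listed at 0 in the pooled mean, and the highest, H2ac1, had a mean of 3.84. All 23 were thus listed far below Macroh2a2, the lowest of the 6 variant genes. Windows shared between these genes are not given here. Where reads aligned to several places are not counted, their means leave out such reads, so absence was not tested.

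Genes whose products place, remove or read the variants were detected throughout. In the group of 20 genes of the SRCAP and TIP60 complexes, which deposit H2A.Z, means ran from 386 (Actr6) to 9983 (Ruvbl2), a helicase subunit that both complexes share, with a median of 2692. Srcap itself, the ATPase, stood at 3855, and Vps72, the subunit that binds H2A.Z, at 3012. The 12 genes of removal and eviction, mostly subunits of INO80, ran from 653 (Actr5) to 4393 (Ino80e) with a median of 1412. Anp32e, the gene lost in the null cells, was in this group with a pooled mean of 2190, close to that of H2az2. As that value merges both genotypes, it does not check the labels.

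The listed histone chaperones had higher means than both groups above, with a median of 12442. Per kilobase, over genes with a known length, their median was 2558, against 842 for deposition and 666 for removal and eviction. Of 8 listed genes 7 had a row, Supt16h having none under that symbol, and their means ran from 2022 (Anp32b) to 28854 (Npm1). Ssrp1, a subunit of the chaperone FACT, stood at 23101. The 10 genes that modify or read H2A.X ran from 574 (Prkdc, a kinase of broken DNA ends) to 11116 (Baz1b, the kinase of its terminal tyrosine). Atm, the main kinase of its serine, stood at 1791 and Mdc1, which binds the phosphorylated end, at 2595. The 4 genes linked to macroH2A ran from 2737 (Atrx) to 14191 (Hmgb1).

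**Figure D5:**
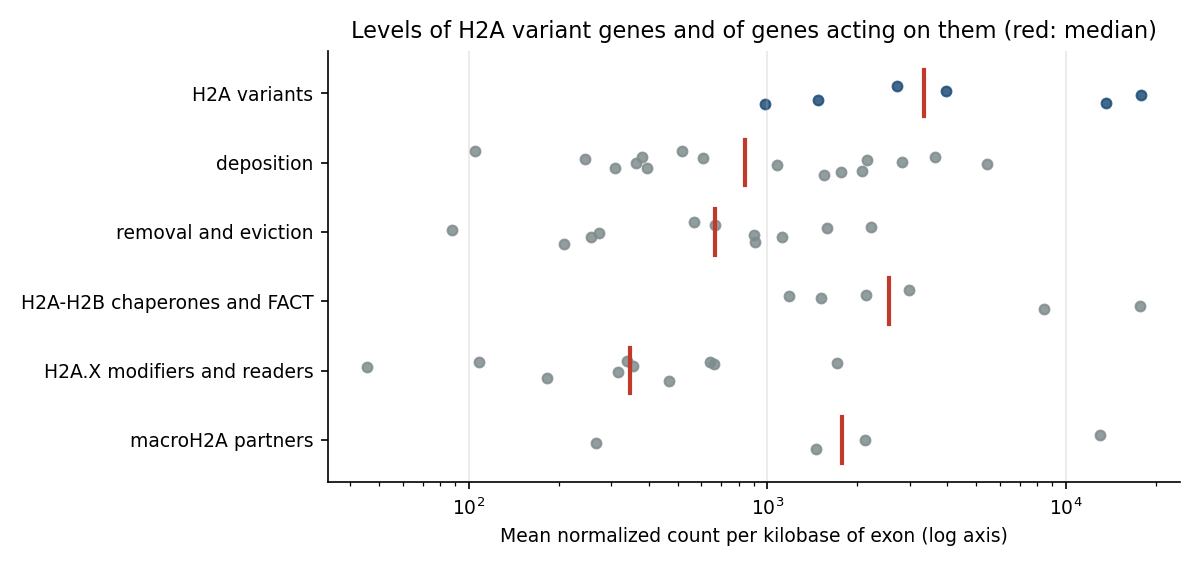
Mean normalized count per kilobase of exon (x axis, log scale) of the 6 H2A variant genes and of listed genes that act on them, one point per gene with a known length and a red line at each median. The medians are 842 for deposition, 666 for removal and eviction, 2558 for chaperones, 347 for H2A.X modifiers and readers and 1784 for macroH2A partners.

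The cell type on the labels was checked against marker genes. Of 12 fibroblast markers 10 had a mean of at least 10, led by Vim at 330695, while Lum (1.33) and Fap (3.22) did not. Markers of other cells were present in part. A mean of at least 10 was found for 3 of 6 epithelial, 2 of 4 endothelial, 2 of 6 macrophage and blood, 1 of 4 skeletal muscle, 4 of 4 mesothelial, 0 of 4 neural crest and glia, and 1 of 3 embryonic stem cell markers. The highest of their lists included Acta1 at 4711, Kdr at 2958, Krt18 at 1106, Upk1b at 919 and Cd68 at 257, and Acta1 and Kdr were above the fibroblast marker Pdgfra at 628. The mesothelial genes ran from 300.3 (Wt1) to 919. Only Hbb-bt, Myod1 and Zfp42 were listed at 0 among these markers. In bulk cells, a lower level cannot be told apart from fewer cells of a type, and the part of other cell types in the levels above was not tested.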

How the data were processed

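RNA-seq of 6 MEF libraries, 3 WT and 3 Anp32e null, was used as 1 deposited table of 42361 RefSeq transcripts (36085 coding, 6276 noncoding). Per the labels the processing named STAR, Subread featureCounts and DESeq2 with the build mm10; the methods state default settings, which for featureCounts means no use of strand and no counting of reads aligned to several places. Transcripts of a gene share counts in the table, so overlapping features may have been treated in another way. The signal used is the authors' mean over all libraries of counts divided by size factors. The table's other 5 columns hold the authors' genotype comparison (fold change, its error, test statistic and p-values) and were not used. No counts per library were at hand, so the planned edgeR test was not run and no p-value is given. The lowest means fell in 6 steps of 1 count, which correspond to size factors of 0.909 to 1.13; summed over 1 transcript per gene, the means came to 51217083 per library, in which reads can be shared between genes. This depth leaves counting errors of at most 1.73% for the members if counts are independent. Poisson intervals cover counting error only, and they are too narrow if both reads of a pair were counted.

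Transcripts were matched by accession to RefSeq genes of GRCm38.p6 (42198 matched, 25039 genes), and lengths and sequences came from GENCODE vM21 (mm10) through its RefSeq links, found for 89.8% of autosomal genes. Gene names older than RefSeq's were taken from its synonyms. Coding sequences were translated for residue counts. Transcripts were aligned locally with Biopython 1.88 (match 2, mismatch -3, gap opening -5, extension -2) and proteins and coding sequences globally (match 1, mismatch 0, gap -1). Windows were searched exactly in all annotated transcripts rather than in the genome. Alignment, window search and percentiles were tested on simulated data. The members and gene lists were chosen with earlier results of these data known; lists are given by counts, range and extremes, and single list genes beyond the highest and lowest were named for their role after their values were seen.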

Additional observations from a re-analysis of the deposited data

How the results depend on the processing

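Of the values recomputed under other settings, 35 stayed within counting error, 1 percentage point or, for counts of genes, 1.5 times the value, and 17 moved further. Some of the 35 could not move. H2ax, H2aj, Macroh2a2 and H2af-ps2 have 1 transcript each, so a median over transcripts returns the same level. Each coding member was already represented by a coding transcript, so keeping only coding transcripts changes nothing. For H2az2, H2ax, H2aj and Macroh2a2 the union of exons left the level per kilobase as it was. The alignments of H2af-ps2 with H2ac18, H2ax and H2aj lie in coding sequence, so using coding sequence alone returns the same identity. The ratio of H2az1 to H2az2 per kilobase was 7.28 with the union of exons, 12.8 with the number of read start positions and 7.92 with coding length, against 12.1. The share of H2af-ps2 windows found elsewhere was 0 at 150 bases, 45.7% at 75 and 67.6% at 50. The planned search of the genome was not run, and annotated transcripts were searched instead. Per kilobase, the union of exons lowered Macroh2a1 from 3978 to 1195 and H2az1 from 17860 to 10750. Both falls come from the longer length alone, as the counts stayed the same. Among genes with a mean of at least 10, Macroh2a2 stood at the 72.4 percentile and H2az2 at 80.3. Using GENCODE lengths for every H2A gene, chosen after seeing the data, gave the variants 19.6% of the summed level. No paired analysis was possible because the labels' shared replicate numbers have no values per library here. For the same reason no library could be left out. The spread between libraries is unknown, so it could not be set against the counting error.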
